A study of Mus musculus with 35 samples.

Results

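The JAK-STAT pathway was followed through 10 genes in RNA-seq of mouse hematopoietic stem/progenitor cells (HSPCs) from bone marrow: the kinase genes Jak1, Jak2 and Jak3, the transcription factor genes Stat3, Stat5a, Stat5b and Stat6, and the feedback inhibitor genes Cish, Socs2 and Socs3. The genes were listed by name and not by a cutoff on their values, though with earlier results of these data known. All 10 are among the 11982 gene names of the deposited expression table. Of these 10 genes only Stat3 passed the unadjusted threshold of the test between genotypes, a p of 0.05, which 10.1% of all genes tested passed (6.33% lower and 3.81% higher in JMJD1B-/- HSPCs). Its level in JMJD1B-/- HSPCs was 67.9% of the WT mean (15.3 ± 0.150 against 22.5 ± 1.15 RPKM, SD, n = 2 each). No gene of the 10 passed the test after adjustment over all genes.

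The study asked how loss of the histone demethylase JMJD1B, the product of Kdm3b, changes gene expression in HSPCs. RNA came from 2 WT and 2 JMJD1B-/- libraries, described by the submitters as biological replicates. The knockout is a gene trap, made in embryonic stem cells of the 129P2 background, and both genotypes are of the mixed strain 129P2xC57BL/6J. The mice were adults of both sexes, WT animals served as controls, no drug or cytokine treatment is given, and the allele is not described as limited to one cell type. The surface markers used to purify the cells, and whether a library holds 1 mouse or a pool, are not given in the sources used here. With 2 libraries against 2, a p-value measures only the spread between these libraries.

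Cytokine receptors have no kinase of their own and carry a JAK on their inner side. When a cytokine brings receptor chains together, the JAKs phosphorylate the receptor and then a STAT, which enters the nucleus as a dimer and switches on target genes. Among those targets are the SOCS genes and Cish, whose products bind receptors or JAKs and damp the signal. In blood formation JAK2 with STAT5 serves erythropoietin and the receptors that share the common beta chain, STAT3 serves interleukin-6 and granulocyte colony-stimulating factor, JAK3 works with the common gamma chain of lymphoid receptors, and STAT6 serves interleukin-4. The activity of these proteins is set by phosphorylation, which RNA-seq does not measure.

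The unit RPKM is reads per kilobase of gene length, scaled to the reads of the library, so levels of different genes can be compared. The libraries differed in depth. Low values that fall on whole numbers of reads put WT replicates 1 and 2 at 17500000 and 24600000 reads and JMJD1B-/- replicates 1 and 2 at 6100000 and 21000000 reads. A transcript of 1 kb with 3 reads would stand at 0.491 RPKM in JMJD1B-/- replicate 1 and at 0.122 to 0.171 RPKM in the others. Kdm3b itself was at 31.0 and 24.3 RPKM in WT and at 4.00 and 4.63 RPKM in JMJD1B-/- libraries, lower in both libraries labelled as knockout (log2 fold change −2.65, SE 0.24, limma adjusted p = 0.0314). Of 11 stem and progenitor markers, 10 had a log2 fold change below 0, against 53% of all genes. Among the 11, Kit, the stem cell factor receptor, was at 51.6 to 92.7 RPKM and Myb, a progenitor transcription factor, at 137 to 211 RPKM. Others were low in every library, with Ly6a at 0.629 to 2.96 RPKM and Procr at 0.180 to 1.47 RPKM. Cd34 was at 42.9 and 43.5 RPKM in WT and at 20.9 and 11.7 RPKM in JMJD1B-/- HSPCs. WT replicate 2 stands apart by sex-linked transcripts, with Xist at 332 RPKM, where the others reach no more than 0.0510 RPKM, and Ddx3y at 0.411 RPKM against 25.5 to 29.3 RPKM. Calls and signs that change without that library are given beside the genes or in the closing section.

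**Figure D1:**
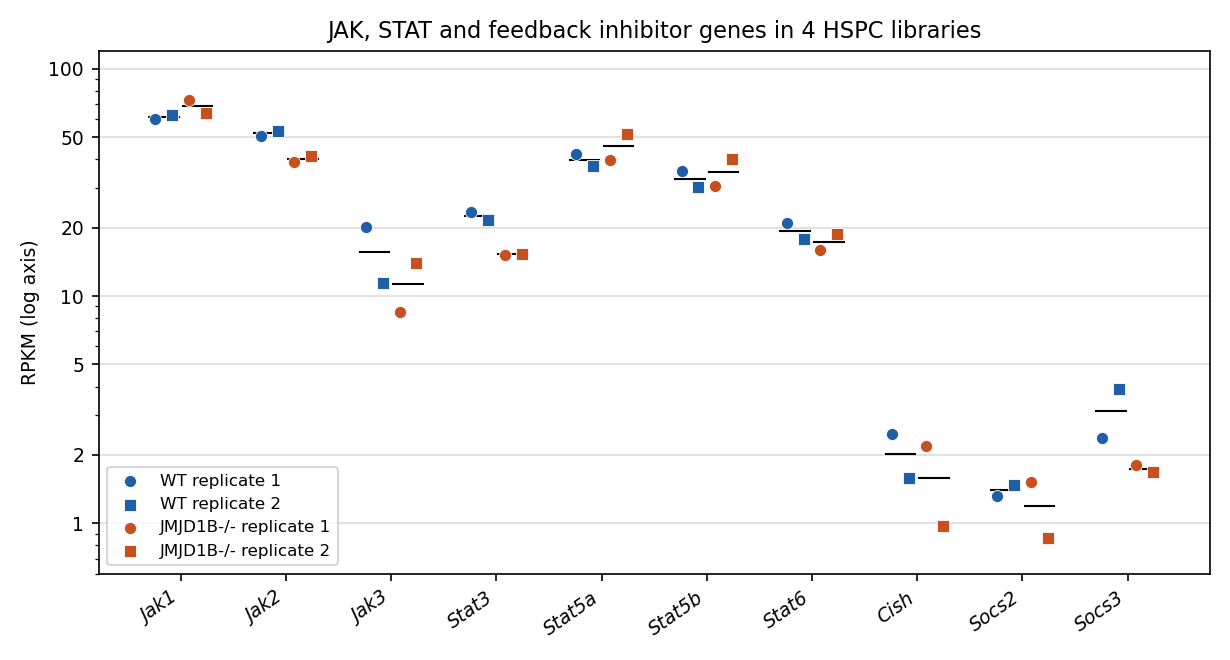
RPKM on a log axis of the 10 genes in each HSPC library, with WT in blue and JMJD1B-/- in orange and the replicate shown by the marker. Jak1 lies highest in every library, the 3 feedback inhibitors lie lowest, between 0.862 and 3.88 RPKM, and the JMJD1B-/- points lie below both WT points for Jak2, Stat3 and Socs3.

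The order of the levels was nearly that of the pathway: kinases and STATs high, inhibitors low. In WT HSPCs Jak1 had the highest mean, above 93.8% of the genes in the table, followed by Jak2, Stat5a, Stat5b, Stat3, Stat6 and Jak3, and then by Socs3, Cish and Socs2. Stat6 and Jak3 could not be ordered in WT, since their libraries overlapped, and neither could Socs3 and Cish. All other neighbours were separate in both WT libraries. In JMJD1B-/- HSPCs Jak1 stayed highest, the ranges of Stat5a, Jak2 and Stat5b overlapped, Stat3 lay below Stat6 instead of above it, and the 3 inhibitors overlapped in a chain.

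Jak1, the kinase of interferon, interleukin-6 family and gamma chain receptors, was at 60.1 and 62.9 RPKM in WT and at 72.7 and 63.97 RPKM in JMJD1B-/- libraries. Both JMJD1B-/- values lay above both WT values, by little. The difference was 0.15 on the log2 scale (SE 0.17, 95% interval −0.26 to 0.56) and did not pass the test (limma adjusted p = 0.796). Here and in what follows a log2 fold change is JMJD1B-/- minus WT on the scale of log2(RPKM + 0.1).

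Jak2, the kinase of the erythropoietin and common beta chain receptors, was at 50.9 and 53.4 RPKM in WT and at 38.8 and 41.4 RPKM in JMJD1B-/- libraries. The genotypes did not overlap, and the JMJD1B-/- mean was 77.0% of the WT mean. The log2 fold change of −0.38 (SE 0.17, 95% interval −0.78 to 0.026) missed the unadjusted threshold (limma adjusted p = 0.511). It passed that threshold in 4 of 13 alternatives: median-ratio scaling, quantile normalization, the gene-by-gene test and the fit without JMJD1B-/- replicate 2.

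Jak3, which in lymphoid cells pairs with the common gamma chain, was at 20.04 and 11.4 RPKM in WT and at 8.54 and 13.99 RPKM in JMJD1B-/- libraries. The genotypes overlapped and the replicates of each differed widely. The log2 fold change was −0.46 (SE 0.35, 95% interval −1.28 to 0.35, limma adjusted p = 0.682), and it ranged from −0.87 to −0.056 when each library was left out, passing the unadjusted threshold without JMJD1B-/- replicate 2.

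Together with Tyk2, the fourth kinase of the family, the JAK genes summed to 147 and 140 RPKM in WT and to 134 and 133 RPKM in JMJD1B-/- HSPCs. Jak1 took 41.0% and 44.9% of this sum in WT and 54.2% and 48.0% in JMJD1B-/- HSPCs, whereas Jak2 took 34.7% and 38.2% in WT and 28.9% and 31.1% in JMJD1B-/- HSPCs. Neither share overlapped between genotypes. Tyk2, which serves type I interferon and interleukin-12 receptors, was at 15.6 and 12.3 RPKM in WT and at 14.2 and 13.9 RPKM in JMJD1B-/- libraries (log2 fold change 0.020, limma adjusted p = 0.986).

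Stat3, the factor of interleukin-6 and granulocyte colony-stimulating factor, was at 23.3 and 21.7 RPKM in WT and at 15.2 and 15.4 RPKM in JMJD1B-/- libraries. Replicates lay close together and the genotypes were apart. The log2 fold change was −0.56 (SE 0.19, 95% interval −1.01 to −0.10), past the unadjusted threshold but not the adjusted one (limma adjusted p = 0.425). It lay between −0.61 and −0.50 under the 13 alternatives, and passed the unadjusted threshold in 11 of them. The call was lost without WT replicate 1 (−0.50) and without WT replicate 2 (−0.61), where the lone WT library is assumed to vary like the rest. In a bulk sample fewer cells of a type and less RNA per cell cannot be told apart, and this holds for every difference given here.

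Stat5a and Stat5b, near-identical factors downstream of JAK2 that promote survival of erythroid and myeloid progenitors, overlapped between genotypes. Stat5a was at 42.3 and 37.2 RPKM in WT and at 39.6 and 51.9 RPKM in JMJD1B-/- libraries (log2 fold change 0.19, SE 0.20, 95% interval −0.29 to 0.67, limma adjusted p = 0.780). Stat5b was at 35.5 and 30.2 RPKM in WT and at 30.6 and 39.9 RPKM in JMJD1B-/- libraries (log2 fold change 0.093, SE 0.21, 95% interval −0.40 to 0.58, limma adjusted p = 0.912). Both genes were highest in JMJD1B-/- replicate 2, and without that library their log2 fold changes were −0.0027 and −0.098. How the reads of these paralogs were divided is not stated, so the values of the pair are less certain than their sum.

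Stat6, the factor of interleukin-4 and interleukin-13, was at 21.0 and 17.8 RPKM in WT and at 15.9 and 18.7 RPKM in JMJD1B-/- libraries. The genotypes overlapped (log2 fold change −0.16, SE 0.21, 95% interval −0.66 to 0.33, limma adjusted p = 0.823). The fold change ran from −0.28, without WT replicate 2, to −0.045, without WT replicate 1.

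Summed over the 7 STAT genes in the table, the RPKM was 155 and 142 in WT and 137 and 150 in JMJD1B-/- HSPCs, which overlapped. Stat3 made up 15.0% and 15.3% of this sum in WT and 11.1% and 10.3% in JMJD1B-/- HSPCs. Stat5a and Stat5b together made up 50.2% and 47.6% in WT and 51.3% and 61.3% in JMJD1B-/- HSPCs, so that the share of Stat3 was lower and that of the STAT5 genes higher in both JMJD1B-/- libraries. In the RefSeq annotation of GRCm38.p6 Stat5b, Stat5a and Stat3 follow one another on chromosome 11 with no annotated gene between them, and of these neighbours Stat3 alone passed the unadjusted test; the difference between their fold changes was not tested.

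**Figure D2:**
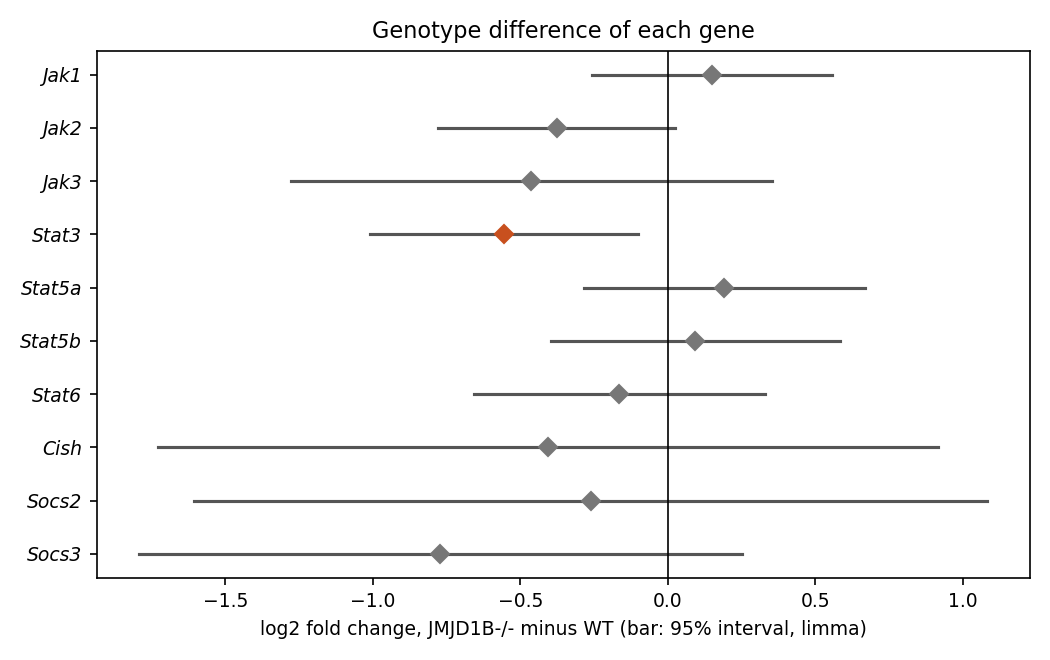
Log2 fold change of each of the 10 genes, JMJD1B-/- minus WT, with its 95% interval from limma. Stat3, in orange, is the only gene whose interval lies entirely below 0 (−1.01 to −0.10), and the intervals of the 3 inhibitors are the widest, from −1.79 to 1.08 in all.

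Cish, Socs2 and Socs3 are the readout end of the pathway, because STAT dimers induce them. STAT dimers bind a palindrome whose best known form is TTCNNNGAA, with a wider form TTCNNNNGAA bound by STAT6. RefSeq promoter windows of GRCm38.p6, from 250 bases before to 50 bases after an annotated start, were found for 9 of the 10 genes (11 windows), and Socs2 has none. TTCNNNGAA, which reads the same on both strands, occurs in 8.3% of all 32851 windows, and 2 or more copies occur in 0.457%. Cish held 2 copies, Socs3 held 1, and the other 7 genes held none. TTCNNNNGAA, found in 6.95% of all windows, was in none of the 11. The windows of Cish (chr9:107296409-107296708, plus strand), Socs3 (chr11:117969317-117969616, minus strand) and Stat3 (chr11:100939491-100939790, minus strand) are shown 5′ to 3′, the first pair for their matches, in capitals, and the last as the gene that passed the unadjusted test.
Cish: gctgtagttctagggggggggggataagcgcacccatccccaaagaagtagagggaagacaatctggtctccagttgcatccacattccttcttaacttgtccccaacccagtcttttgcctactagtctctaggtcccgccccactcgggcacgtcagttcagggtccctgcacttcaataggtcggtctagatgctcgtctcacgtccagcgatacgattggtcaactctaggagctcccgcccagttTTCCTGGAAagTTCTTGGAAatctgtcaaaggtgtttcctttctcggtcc
Socs3: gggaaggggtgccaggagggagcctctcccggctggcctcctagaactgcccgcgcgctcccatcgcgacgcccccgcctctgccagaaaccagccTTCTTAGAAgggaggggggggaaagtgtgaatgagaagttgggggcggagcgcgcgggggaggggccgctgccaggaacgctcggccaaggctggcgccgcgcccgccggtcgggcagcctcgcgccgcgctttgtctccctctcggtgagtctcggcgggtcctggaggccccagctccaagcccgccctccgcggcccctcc
Stat3: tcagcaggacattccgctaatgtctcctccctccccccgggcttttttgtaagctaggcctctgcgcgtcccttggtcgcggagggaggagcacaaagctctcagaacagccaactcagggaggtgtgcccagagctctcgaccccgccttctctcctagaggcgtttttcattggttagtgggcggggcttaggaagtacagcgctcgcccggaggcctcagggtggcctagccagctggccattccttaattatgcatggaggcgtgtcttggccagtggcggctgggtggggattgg
Counted from the 5′ end of the window, the copies in Cish lie at bases 251 to 259 (TTCCTGGAA) and 262 to 270 (TTCTTGGAA), just past the annotated start, and the copy in Socs3 lies at bases 97 to 105 (TTCTTAGAA). A match is a description of the letters and not a measured binding site.

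Cish, which blocks STAT5 docking at receptors, was at 2.47 and 1.58 RPKM in WT and at 2.20 and 0.9746 RPKM in JMJD1B-/- libraries. The genotypes overlapped. The log2 fold change was −0.41 (SE 0.57, 95% interval −1.73 to 0.92, limma adjusted p = 0.839), and without JMJD1B-/- replicate 2 it turned to 0.14.

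Socs2, an inhibitor of STAT5 signaling in hematopoietic cells, was at 1.32 and 1.48 RPKM in WT and at 1.51 and 0.862 RPKM in JMJD1B-/- libraries. It was the lowest of the 10 genes in mean level in both genotypes. The genotypes overlapped (log2 fold change −0.26, SE 0.57, 95% interval −1.61 to 1.08, limma adjusted p = 0.908), and the sign turned under quantile normalization (0.061) and without JMJD1B-/- replicate 2 (0.11). The intervals of Cish and Socs2 are wide on both sides of 0.

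Socs3, the inhibitor of interleukin-6 family and granulocyte colony-stimulating factor signaling, was at 2.37 and 3.88 RPKM in WT and at 1.80 and 1.68 RPKM in JMJD1B-/- libraries. Neither JMJD1B-/- value reached the lower WT value, and the JMJD1B-/- mean was 55.6% of the WT mean. The log2 fold change of −0.77 (SE 0.44, 95% interval −1.79 to 0.25) did not pass the test (limma adjusted p = 0.590) and ran from −1.12 to −0.43 when single libraries were left out. Of the 10 genes Socs3 is the one whose values give whole reads in all 4 libraries. They are 113 and 260 reads in WT and 30 and 96 in JMJD1B-/- libraries. The exact Poisson 95% intervals, which cover counting error only, are 1.95 to 2.85 and 3.42 to 4.38 RPKM for WT and 1.22 to 2.57 and 1.36 to 2.05 RPKM for JMJD1B-/-. The interval of WT replicate 1 thus overlaps those of both JMJD1B-/- libraries, while that of WT replicate 2 lies above all others.

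Relative to the factors that drive them, the inhibitors did not separate the genotypes. Socs3 per Stat3 was 10.2% and 17.9% in WT and 11.9% and 10.9% in JMJD1B-/- HSPCs (log2 difference −0.25, exact permutation test, p = 1). Cish per summed Stat5a and Stat5b was 3.18% and 2.35% in WT and 3.13% and 1.06% in JMJD1B-/- HSPCs (log2 difference −0.58, exact permutation test, p = 0.667). Socs2 per the same sum was 1.69% and 2.19% in WT and 2.16% and 0.940% in JMJD1B-/- HSPCs (log2 difference −0.43, exact permutation test, p = 0.667). The low value of both STAT5 ratios came from JMJD1B-/- replicate 2, and without it the differences were 0.20 and 0.17. The Socs3 ratio likewise turned to 0.16 without WT replicate 2.

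Between the kinases, Jak1 per Jak2 was 1.18 in each WT library and 1.87 and 1.54 in JMJD1B-/- libraries, without overlap (log2 difference 0.53). Jak3 per Jak1 overlapped, at 0.334 and 0.181 in WT and 0.117 and 0.219 in JMJD1B-/- libraries (log2 difference −0.62, or −1.07 to −0.17 with single libraries left out). Stat5a per Stat5b was nearly constant, at 1.19 and 1.23 in WT and 1.29 and 1.30 in JMJD1B-/- libraries (log2 difference 0.099). With 2 libraries against 2, the smallest two-sided p of an exact permutation test is 0.333, which Jak1 per Jak2 and Stat5a per Stat5b reached. After adjustment over the 6 ratios the exact permutation p-values were 0.8 to 1.

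**Figure D3:**
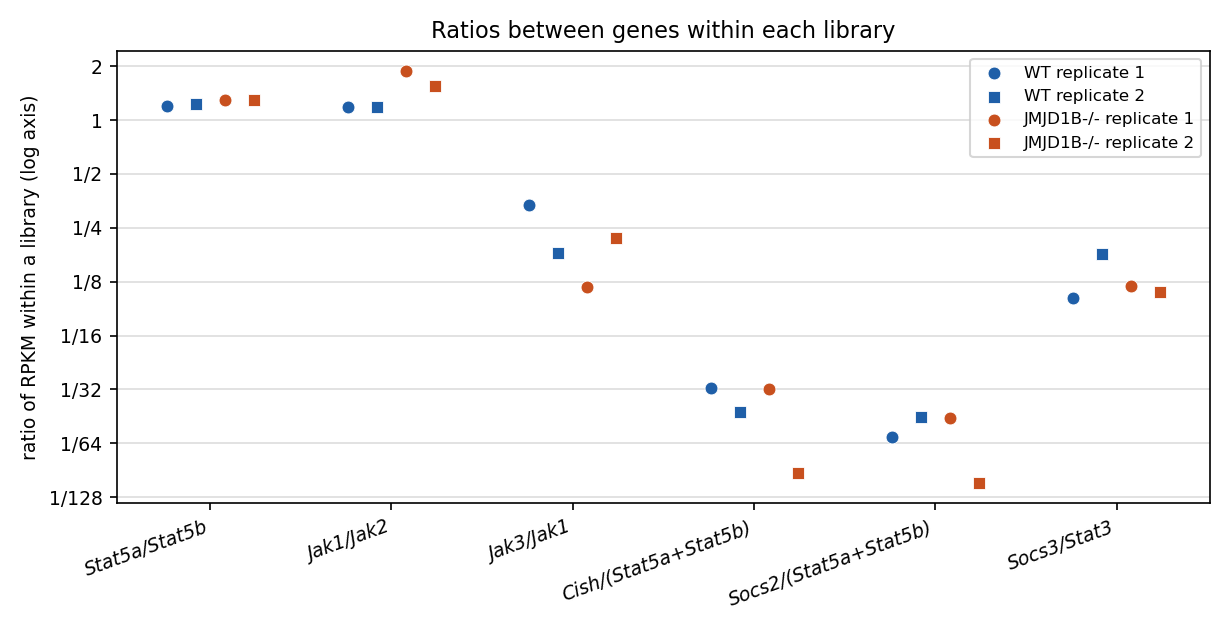
Ratios of RPKM between genes within each library, on a log axis, with WT in blue and JMJD1B-/- in orange. Jak1 per Jak2 lies at 1.18 in both WT libraries and at 1.54 and 1.87 in JMJD1B-/- libraries, whereas the Cish and Socs2 ratios of the genotypes overlap and are lowest in JMJD1B-/- replicate 2.

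In all, 1 of the 10 genes passed the unadjusted threshold of limma as lower in JMJD1B-/- HSPCs and 0 as higher, where 6.33% of the 11863 genes tested were lower and 3.81% higher (751 and 452 genes, or 714 and 671 under quantile normalization). The gene-by-gene test called 2 lower, Jak2 and Stat3, and 0 higher, where it called 4.32% of all genes lower and 2.93% higher. No gene of the 10 passed an adjusted p of 0.05 in either test, against 0.0421% of all genes in limma (0.0337% lower and 0.00843% higher), and the adjusted p-values ran from 0.425 to 0.912. JMJD1B-/- values lay below both WT values in 3 genes and above them in 1, against 22.7% and 20.1% of all genes. The count of 4 genes without overlap is close to the 42.9% of all genes that do not overlap. A log2 fold change below 0 was found in 7 of the 10 genes and in 53% of all genes. The median was −0.32 for the 10 genes and −0.025 for all genes tested. That median was −0.077 without WT replicate 1 and −0.19 without JMJD1B-/- replicate 2. The number of the 10 genes called lower was 0 without either WT library and 3 without JMJD1B-/- replicate 2 (Jak2, Jak3 and Stat3). Over all genes the share called lower was 1.61% without WT replicate 1, 2.38% without WT replicate 2 and 14.9% without JMJD1B-/- replicate 2. All 10 genes were above the minimum mean level for testing, 0.5 RPKM.

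The rest of the pathway was followed in 6 lists of 75 genes, of which 69 were in the table and tested. Of these 69 genes 13 were lower and 2 higher at the unadjusted threshold, against 6.33% and 3.81% of all genes, and their median of −0.32 was that of the 10 genes. None passed the adjusted threshold in limma with all libraries and no replicate term or in the gene-by-gene test, but 17 did in limma without JMJD1B-/- replicate 1, 7 without JMJD1B-/- replicate 2 and 6 with the replicate block. In the same fits 8.41%, 4.6% and 2.16% of all genes passed it. The unadjusted counts of the gene-by-gene test were 6 lower and 3 higher. The count of 13 became 1 without WT replicate 1, 5 without WT replicate 2 and 22 without JMJD1B-/- replicate 1, where 1.61%, 2.38% and 11.5% of all genes were lower. The count of 2 became 1 without either WT library (for WT replicates 1 and 2 left out, 1.07% and 2.09% of all genes higher) and 7 without JMJD1B-/- replicate 2 (6.15% of all genes). Socs1, Osmr, Ghr, Prlr, Il9r and Lcn2 were not analysed here.

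Of the 4 other JAK and STAT genes and the 8 other SOCS and PIAS inhibitor genes, none was called in limma. The medians of these lists were −0.085 and 0.0026, and Socs4, the highest of the inhibitors in mean level, was at 17.4 and 17.8 RPKM in WT and at 21.5 and 20.8 RPKM in JMJD1B-/- libraries (log2 fold change 0.26, limma adjusted p = 0.670). Socs4 passed the unadjusted threshold in the gene-by-gene test alone of the 13 alternatives.

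Of the 8 phosphatases and SH2B adaptors that act on JAKs, 2 were lower and 0 higher at the unadjusted threshold (6.33% and 3.81% of all genes), with a median of −0.20. Sh2b3 encodes LNK, a brake on JAK2 in stem cells. It was at 8.16 and 9.11 RPKM in WT and at 5.92 and 4.89 RPKM in JMJD1B-/- libraries (log2 fold change −0.67, limma adjusted p = 0.472). The adaptor gene Sh2b2 was at 3.51 and 2.59 RPKM in WT and at 1.15 and 1.34 RPKM in JMJD1B-/- libraries (log2 fold change −1.22, limma adjusted p = 0.438). Both calls were lost when either WT library was left out, with fold changes of −1.01 and −1.43 for Sh2b2 and −0.75 and −0.59 for Sh2b3, and likewise under quantile normalization and with the replicate block. That of Sh2b3 was also lost without JMJD1B-/- replicate 2 and in the gene-by-gene test.

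Receptors made up 32 of the 69 genes tested and 8 of the 13 lower ones, a difference that was not tested. Of the 13 myeloid and stem cell cytokine receptors tested, 7 were lower and 0 higher at the unadjusted threshold (6.33% and 3.81% of all genes), 12 had a log2 fold change below 0, and the median was −1.07. The 7 were Csf3r, Csf2rb, Csf2rb2, Il3ra, Il6ra, Il6st and Il11ra1, and the 4 of them outside the naming rule (Csf3r, Il3ra, Il6ra and Il11ra1) were named after their values were seen. The count was 2 by the gene-by-gene test, 0 without WT replicate 1 and 3 without WT replicate 2, while leaving out JMJD1B-/- replicate 1 or 2 gave 7 and 8. All genes called lower in these fits were 4.32% by the gene-by-gene test, 1.61% and 2.38% without WT replicates 1 and 2, and 11.5% and 14.9% without JMJD1B-/- replicates 1 and 2.

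The signal transducer Il6st, which encodes the gp130 chain upstream of STAT3, was at 15.0 and 14.9 RPKM in WT and at 9.86 and 3.73 RPKM in JMJD1B-/- libraries (log2 fold change −1.28, SE 0.42, limma adjusted p = 0.406). Its partner Il6ra, the interleukin-6 binding chain, was at 7.45 and 7.42 RPKM in WT and at 3.46 and 2.97 RPKM in JMJD1B-/- libraries (log2 fold change −1.19, SE 0.29, limma adjusted p = 0.259). Csf3r, the receptor of granulocyte colony-stimulating factor, was at 5.64 and 4.62 RPKM in WT and at 2.60 and 2.17 RPKM in JMJD1B-/- libraries (log2 fold change −1.07, limma adjusted p = 0.393). Il11ra1, the interleukin-11 binding chain, was at 11.05 and 9.36 RPKM in WT and at 4.81 and 6.61 RPKM in JMJD1B-/- libraries (log2 fold change −0.84, limma adjusted p = 0.403), and its call was lost in the gene-by-gene test. These receptors signal through STAT3, as do those of Lifr and Lepr, which overlapped between genotypes. All 4 calls were lost when either WT library was left out, with fold changes that stayed at −1.28 and −1.29 for Il6st, −1.19 for Il6ra, −0.93 and −1.21 for Csf3r, and −0.72 and −0.96 for Il11ra1. That of Il6st was also lost in limma without the trend and in the gene-by-gene test, and its fold change was −1.97 with JMJD1B-/- replicate 1 left out and −0.59 with JMJD1B-/- replicate 2 left out.

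Among the receptors that use JAK2 and STAT5, the common beta chain gene Csf2rb was at 24.99 and 17.1 RPKM in WT and at 12.02 and 3.77 RPKM in JMJD1B-/- libraries (log2 fold change −1.60, SE 0.50, limma adjusted p = 0.386). Its fold change ran from −2.43 to −0.78 when single libraries were left out, and its call was lost without WT replicate 1, in limma without the trend and in the gene-by-gene test. Its paralog Csf2rb2, which is close enough in sequence that the 2 genes may share reads, was at 11.3 and 9.87 RPKM in WT and at 6.39 and 2.18 RPKM in JMJD1B-/- libraries (log2 fold change −1.47, limma adjusted p = 0.395). Il3ra, the interleukin-3 binding chain, was at 13.8 and 8.74 RPKM in WT and at 4.31 and 5.60 RPKM in JMJD1B-/- libraries (log2 fold change −1.15, limma adjusted p = 0.320). The call of Il3ra was lost without WT replicate 1 and that of Csf2rb2 without either WT library, and both were lost in the gene-by-gene test. The fold change of Csf2rb2 was −2.22 with JMJD1B-/- replicate 1 left out and −0.71 with JMJD1B-/- replicate 2 left out.

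Epor, the erythropoietin receptor gene, was the exception in direction. It was at 11.8 and 14.9 RPKM in WT and at 15.4 and 28.2 RPKM in JMJD1B-/- libraries, both above WT, and did not pass the test (log2 fold change 0.65, SE 0.31, limma adjusted p = 0.537). It passed the unadjusted threshold with the replicate block and without JMJD1B-/- replicate 1, where its log2 fold change was 1.08, and without JMJD1B-/- replicate 2 it was 0.21. Epor, like Id1, was named after its value was seen.

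Of the 19 receptors of the gamma chain, lymphoid and type II classes, 1 was lower and 2 were higher at the unadjusted threshold (6.33% and 3.81% of all genes), with a median of −0.11. Il10ra, the interleukin-10 receptor, was at 9.24 and 9.58 RPKM in WT and at 5.47 and 1.97 RPKM in JMJD1B-/- libraries (log2 fold change −1.49, limma adjusted p = 0.381). Il27ra was at 5.54 and 5.17 RPKM in WT and at 9.0 and 10.9 RPKM in JMJD1B-/- libraries (log2 fold change 0.88, limma adjusted p = 0.348). The calls of Il10ra and Il27ra were lost when either WT library was left out, with fold changes of −1.51 and −1.46 for Il10ra and 0.93 and 0.83 for Il27ra. That of Il10ra was also lost in the gene-by-gene test. The fold change of Il10ra was −2.20 with JMJD1B-/- replicate 1 left out and −0.77 with JMJD1B-/- replicate 2 left out. Il23r, a receptor chain that signals through JAK2 and STAT3 in lymphoid cells, was at 0.413 and 0.514 RPKM in WT and at 11.2 and 2.65 RPKM in JMJD1B-/- libraries (log2 fold change 3.31, SE 0.71, limma adjusted p = 0.211). Il23r is in the table and in the test only through its level in the JMJD1B-/- libraries, so its difference and its count among the higher genes are a description. Its fold change was 2.29 with JMJD1B-/- replicate 1 left out and 4.33 with JMJD1B-/- replicate 2 left out, and its call was lost in the gene-by-gene test. In JMJD1B-/- replicate 1, where Il23r was highest, the summed level of 13 T and NK cell markers was highest too, at 125 RPKM. In JMJD1B-/- replicate 2, where Il23r also lay above both WT libraries, that sum was lowest, at 25.9 RPKM against 34.9 and 52.1 RPKM in WT. A relation between them was not tested.

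**Figure D4:**
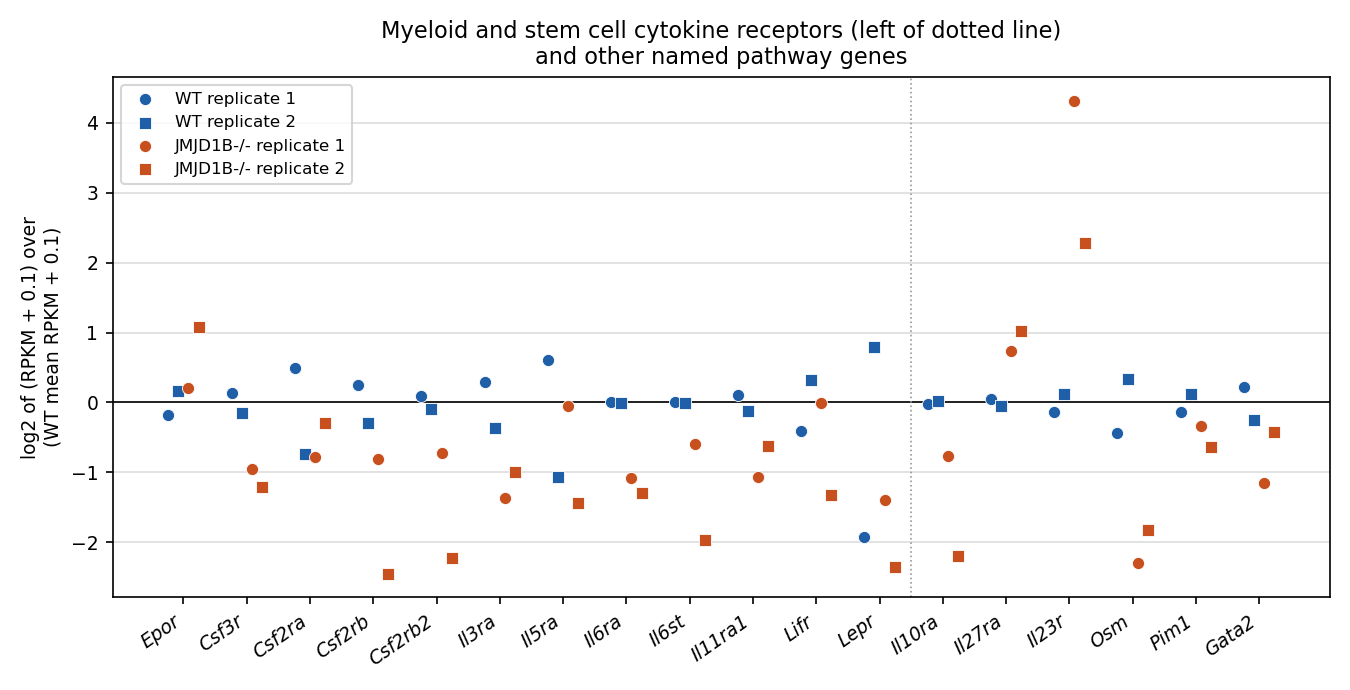
Log2 of (RPKM + 0.1) over the WT mean (+ 0.1) in each library for 12 of the 13 myeloid and stem cell cytokine receptors, left of the dotted line, and for other named pathway genes, right of it. Both JMJD1B-/- points lie below both WT points in 7 of the receptors and above them for Epor, and JMJD1B-/- replicate 2 is the lowest for Csf2rb, Csf2rb2 and Il6st.

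Of 17 STAT3 and STAT5 target genes tested, 3 were lower and 0 higher at the unadjusted threshold (6.33% and 3.81% of all genes), 15 had a log2 fold change below 0 (53% of all genes), and the median was −0.43. Osm, a cytokine of the interleukin-6 family induced by STAT5, was at 5.91 and 10.1 RPKM in WT and at 1.54 and 2.19 RPKM in JMJD1B-/- libraries (log2 fold change −2.01, SE 0.39, limma adjusted p = 0.186). It passed the unadjusted threshold in all 13 alternatives, with a log2 fold change between −2.39 and −1.62. Pim1, a survival kinase gene, was at 41.1 and 49.1 RPKM in WT and at 35.7 and 28.8 RPKM in JMJD1B-/- libraries (log2 fold change −0.49, limma adjusted p = 0.483), and its call was lost without WT replicate 1, WT replicate 2 or JMJD1B-/- replicate 2, under median-ratio scaling, in limma without the trend and in the gene-by-gene test. Gata2, a stem cell and mast cell transcription factor, was at 73.3 and 52.9 RPKM in WT and at 28.4 and 46.9 RPKM in JMJD1B-/- libraries (log2 fold change −0.77, limma adjusted p = 0.435), and its call was lost without WT replicate 1 or JMJD1B-/- replicate 1, in limma without the trend and in the gene-by-gene test. Its fold change ran from −1.13 to −0.41 when single libraries were left out. A further target, Id1, gave whole reads, 50 and 48 in WT and 8 and 13 in JMJD1B-/- libraries, and missed the threshold (log2 fold change −1.30, limma adjusted p = 0.491).

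Markers of several cell types also differed between the genotypes. Over all genes tested, 6.33% were lower and 3.81% higher at the unadjusted threshold, and each count below stands against these shares. The summed RPKM of 12 granulocyte markers was 304 and 207 in WT and 98.4 and 59.1 in JMJD1B-/- libraries. Of the 10 tested, 6 were lower and 2 higher at the unadjusted threshold, with 1 gene at 0 in WT replicate 2 and 1 in JMJD1B-/- replicate 1. The list was thus not uniform. Mpo, among the lower, was at 131 and 79.0 RPKM in WT and at 21.4 and 12.1 RPKM in JMJD1B-/- libraries. The 2 higher were S100a8 (7.24 and 4.74 RPKM in WT, 8.71 and 10.6 in JMJD1B-/-) and S100a9 (2.79 and 1.41 RPKM in WT, 8.01 and 10.8 in JMJD1B-/-). The sum of 7 monocyte and macrophage markers was 137 and 145 in WT and 119 and 33.1 in JMJD1B-/- libraries (3 lower), and that of 8 megakaryocyte markers was 701 and 635 in WT and 276 and 390 in JMJD1B-/- libraries (5 lower). The sum of 10 erythroid markers was higher, at 520 and 804 in WT and 1388 and 2012 in JMJD1B-/- libraries, with 8 of the 10 higher. The marker lists share genes with the receptor and target lists (among them Epor, Csf3r, Il5ra, Il7r, Il2rb, Lepr and Gata2).

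For the remaining lists the same shares of all genes apply, 6.33% lower and 3.81% higher. The 11 stem and progenitor markers summed to 473 and 441 in WT and 296 and 420 in JMJD1B-/- libraries (5 lower). The basophil, eosinophil and mast cell markers summed to 6117 and 1645 in WT and 4581 and 1203 in JMJD1B-/- libraries, with 7 of 10 lower and 0 higher. This sum is led by the eosinophil granule gene Prg2 (988 to 5377 RPKM), which overlapped between genotypes, whereas the median log2 fold change of the list was −2.49. Prss34 of this list was at 246 and 258 RPKM in WT and at 30.6 and 19.9 RPKM in JMJD1B-/- libraries (limma adjusted p = 0.00637). The 13 T and NK cell markers summed to 34.9 and 52.1 in WT and 125 and 25.9 in JMJD1B-/- libraries, with 2 higher and 1 lower. Of the 2 higher, the T cell receptor chain gene Cd3g was at 0.444 and 0.474 RPKM in WT and at 11.7 and 1.66 RPKM in JMJD1B-/- libraries. It is in the table and in the test only through its JMJD1B-/- level, so its count is a description. The 8 stroma and endothelium markers summed to 50.9 and 75.7 in WT and 27.1 and 11.7 in JMJD1B-/- libraries (3 lower). Of 9 B cell markers, 2 were in the table, at a summed 0.738 to 3.88 RPKM (1 lower). The part of these cell types in the receptor and STAT results was not tested.

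**Figure D5:**
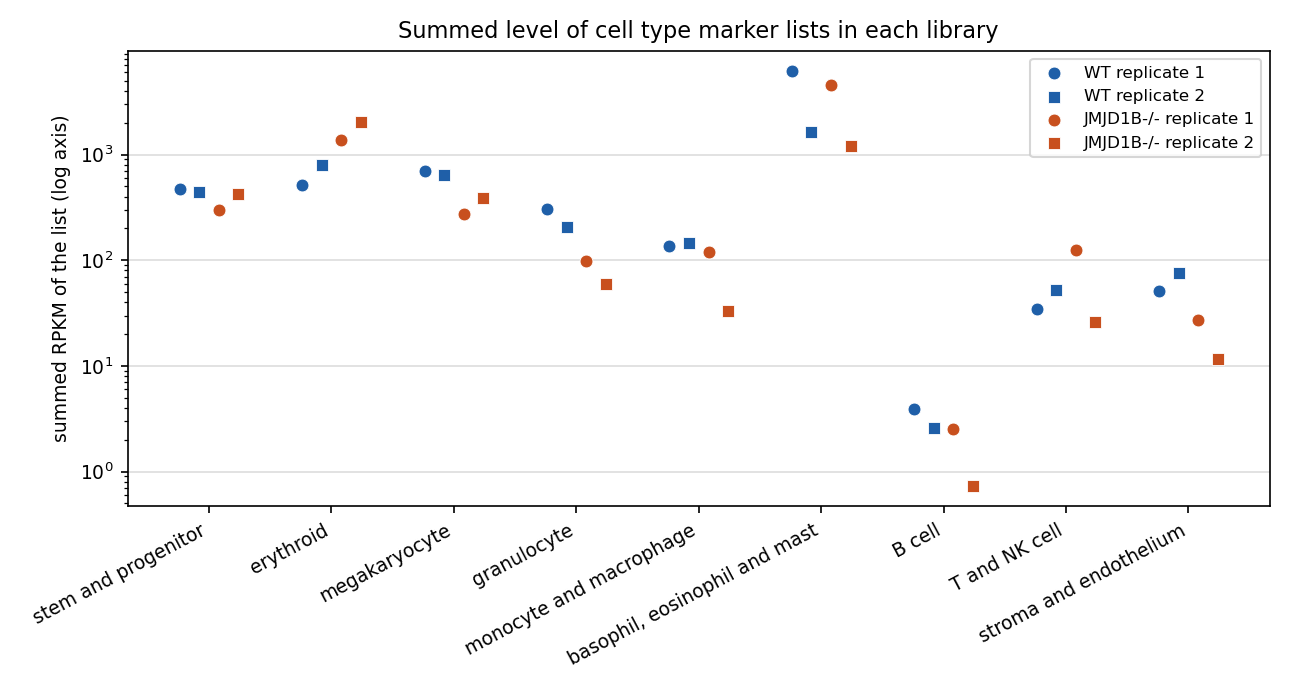
Summed RPKM of each list of cell type markers in the 4 libraries, on a log axis, with WT in blue and JMJD1B-/- in orange. Granulocyte and megakaryocyte sums lie lower and erythroid sums higher in both JMJD1B-/- libraries, and the T and NK cell sum is highest in JMJD1B-/- replicate 1, at 125 RPKM. The granulocyte list also holds S100a8 and S100a9, which were higher in both JMJD1B-/- libraries.

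The genes closest to the inhibitors in pattern were sought among 11212 genes by the root mean square distance of centred log2 values over the 4 libraries, a description over few points. Closest to Cish were Tnfaip8l2 (0.028), Ltb (0.030) and Klf7 (0.052), with 14 genes within 0.1. Tnfaip8l2, for instance, was at 7.40 and 4.78 RPKM in WT and at 6.70 and 3.17 RPKM in JMJD1B-/- libraries, so it too was lowest in JMJD1B-/- replicate 2. Closest to Socs2 were Tgfbr2 (0.038), Acbd5 (0.042) and Mtap4 (0.050), with 37 genes within 0.1. Closest to Socs3 were Hmga2-ps1 (0.031), Ifi204 (0.068) and Csrnp1 (0.083), with 5 genes within 0.1, and each of them was highest in WT replicate 2, as Socs3 was.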

How the data were processed

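The authors deposited 1 table of RPKM values for the 4 HSPC libraries (polyA RNA, TruSeq kit), to each of which 1 had been added; RPKM was recovered by subtracting it. The submitters' processing notes name TopHat2, Novoalign and the build mm9 without their roles; the counting program, its annotation and the strand setting are not given in the sources used here. The table has 12024 entries, and 42 names shared by 84 entries were averaged. Every entry reaches at least 1 RPKM in some library, so genes below that were not analysed here. Of the names, 11900 were matched to RefSeq GRCm38.p6, the 10 genes of the report among them. No ChIP-seq sample entered. One listed gene is counted in its lists but not reported here.

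The test was run on log2(RPKM + 0.1) for genes averaging 0.5 RPKM or more, in limma 3.58.1 (R 4.3.3; eBayes with trend, two-sided, no replicate term), with Benjamini-Hochberg adjustment over 11863 genes, after the script was tested on simulated data. The unadjusted threshold of 0.05 is the one the study used, and it leaves the number of false calls uncontrolled. Ratios within a library were compared by exact permutation. RPKM divides by all reads of a library, so a few abundant transcripts can shift all others. The depths rest on 14 genes that gave the same value within 0.1%. Whole reads were recovered for few genes, and no count test was run.

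Of each of the 6 pathway lists, up to 3 genes with the largest change were named (unadjusted p under 0.05, mean RPKM of at least 1, no overlap), or else the highest expressed; for likeness, the 3 closest genes. The genes, lists, tests and markers were chosen with earlier results of these data known. The alternatives were pseudocounts of 1 and 0.01, a filter at 1 RPKM or none, median-ratio scaling, quantile normalization, limma without the trend, a gene-by-gene equal-variance test, a replicate block, and each library left out. Other software was matplotlib 3.10.9, scipy 1.17.1, pandas 2.3.3, numpy 2.4.6 and Python 3.11.15.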

Additional observations from a re-analysis of the deposited data

How the results depend on the processing

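Kdm3b kept its direction and an unadjusted p under 0.05 in every alternative (log2 fold change −2.82 to −2.42), and no gene of the 10 was higher at that threshold or passed an adjusted p of 0.05 in any. The number of the 10 genes called lower, 1, became 2 under median-ratio scaling, quantile normalization and the gene-by-gene test, and 0 to 3 when single libraries were left out. Their median of −0.32 became −0.20 with a pseudocount of 1, −0.14 under quantile normalization, and −0.31 to −0.077 with single libraries left out. Of the other pathway genes, 13 lower became 6 by the gene-by-gene test and 1 to 22, and 2 higher became 4 with the replicate block and 1 to 7. Myeloid receptors lower, 7, became 2 by the gene-by-gene test and 0 to 8, and higher, 0, became 1 with the replicate block and 0 to 1. Over all genes, 751 lower became 190 to 1777 and 452 higher 127 to 1367. The cause was not tested.

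With single libraries left out, the log2 fold change ran from −0.0027 to 0.39 for Stat5a, −0.098 to 0.28 for Stat5b, −0.95 to 0.14 for Cish and −0.63 to 0.11 for Socs2 (0.061 under quantile normalization), turning sign without JMJD1B-/- replicate 2 in each. Stat5b (−0.022) and Tyk2 (−0.15 to 0.19) turned without WT replicate 2. The log2 difference of the Cish and Socs2 ratios to STAT5 ran from −1.36 to 0.20 and from −1.03 to 0.17, and that of Socs3 to Stat3 from −0.65 to 0.16. Of the values of single named genes under the alternatives, 302 kept direction and side of the threshold, 47 lost the call, 8 gained it and 7 turned sign.

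Over all genes, same-numbered libraries did not deviate together (correlation −0.054). Single genes did follow the number, such as Prg2, at 5377 and 988 RPKM in WT replicates 1 and 2 and at 4328 and 1077 RPKM in those of JMJD1B-/-. Whether the numbers mark pairs of libraries is not given in the sources used here, and the correlation cannot decide it. The replicate block gave 256 genes past an adjusted p of 0.05 against 5 without it, 6 of them pathway genes and 0 of the 10. The depth of JMJD1B-/- replicate 1, 6100000 reads, limits the precision of its low values. Leaving this library out gave 989 genes past an adjusted p of 0.05, leaving out JMJD1B-/- replicate 2 gave 547, and leaving out WT replicate 1 or 2 gave 6 and 1.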
